A study of Homo sapiens with 19 samples.

Results

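BIRC3, TNFAIP3, NFKBIA, NFKB1, NFKB2, RELB, ICAM1, TNFAIP2 and IL32 are 9 genes that respond to the transcription factor NF-κB, and several of them also regulate it. They were taken by Ensembl identifier from a list of members, and all 9 were found among the 32732 genes shared by every matrix of shaker organoids and among the 58721 genes of the matrices from ultra-low attachment plates. Their levels were measured in 120240 cells of 19 single-cell RNA sequencing libraries. They are given as CPM, the count of a gene's unique molecular identifiers (UMIs) over the kept cells of a library, scaled to a common library total.

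The cells came from human liver organoids made from W01, an established pluripotent stem cell line supplied by WiCell and labelled wild-type, and were profiled with 10x Genomics 3′ version 3 chemistry. Organoids in ultra-low attachment (ULA) plates were collected on day 21 (3 libraries) and day 34 (2 libraries). Organoids on an orbital shaker (OS) were collected on day 25 in 7 groups of 2 libraries. These were untreated organoids, organoids given TGFB1 at 10 ng/ml, PA at 500 µM or OA at 500 µM, and a separate control for each of the 3 treatments. What PA and OA stand for is not given in the labels. Treatment followed 20 days of culture and lasted 5 days per the protocol, which describes TGFB1 and PA and not OA. All groups share 1 cell line, so the libraries of a group carry no variation between donors, and the labels do not state that they came from separate cultures. The p-values below therefore measure the spread between these libraries, which may be technical.

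NF-κB is a family of dimeric transcription factors held inactive in the cytoplasm by inhibitory IκB proteins. Ligands such as tumour necrosis factor and interleukin-1 trigger kinases that remove the inhibitor, and the freed dimers enter the nucleus and switch on genes for inflammation and cell survival. Among these genes are inhibitors of the pathway itself, which is why their transcripts are widely read as markers of its activity. In liver, hepatocytes, bile duct cells, stellate cells and macrophages can all use the pathway.

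The genes fall into 3 roles. The feedback regulators are NFKBIA, which encodes the inhibitor IκBα (chromosome 14, 35401079 to 35404749), TNFAIP3, which encodes the ubiquitin-editing enzyme A20 (chromosome 6, 137867214 to 137883314), and BIRC3, which encodes the ubiquitin ligase cIAP2 (chromosome 11, 102317484 to 102339403). The subunits are NFKB1, the source of p50 (chromosome 4, 102501330 to 102617302), NFKB2, the source of p52 (chromosome 10, 102394110 to 102402524), and RELB, the partner of p52 in the non-canonical pathway (chromosome 19, 45001461 to 45038192). The targets are ICAM1, a cell surface adhesion molecule that binds leukocytes (chromosome 19, 10271093 to 10286615), TNFAIP2, a tumour necrosis factor-induced gene (chromosome 14, 103121476 to 103137439), and IL32, a proinflammatory cytokine (chromosome 16, 3065297 to 3082192). Positions are those of GENCODE v44 on GRCh38.

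The DNA just upstream of the 3 feedback genes is printed here because NF-κB binds a short motif, the κB site, in many of its target promoters. All 9 genes, and not these 3 alone, rose with OA below, and a link between the motif and that rise was not tested. RefSeq's promoter table (GRCh38.p14) held 8 of the 9 genes, and RELB was not in it. The 250 bases before each annotated start were searched on both strands for the 10-base κB consensus, with overlapping matches counted separately. A match was found in 6 of the 8 genes and in 7 of their 12 windows, against 9.961% of all 35116 windows and 11.8% of 27305 genes. A match describes the letters only and is not a measured binding site. Each sequence below reads 5′ to 3′ on the gene's own strand, stops before the first annotated untranslated region (250 bases for BIRC3 and NFKBIA, 205 for TNFAIP3), and has the matches in capitals. BIRC3 lies on the plus strand at chr11:102317234-102317483, NFKBIA on the minus strand at chr14:35404750-35404999 and TNFAIP3 on the plus strand at chr6:137867009-137867213.
BIRC3: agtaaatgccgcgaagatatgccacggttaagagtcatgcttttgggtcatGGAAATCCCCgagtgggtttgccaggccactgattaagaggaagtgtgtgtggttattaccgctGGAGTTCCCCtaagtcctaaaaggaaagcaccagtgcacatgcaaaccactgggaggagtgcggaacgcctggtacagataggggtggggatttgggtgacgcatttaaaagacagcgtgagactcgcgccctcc
NFKBIA: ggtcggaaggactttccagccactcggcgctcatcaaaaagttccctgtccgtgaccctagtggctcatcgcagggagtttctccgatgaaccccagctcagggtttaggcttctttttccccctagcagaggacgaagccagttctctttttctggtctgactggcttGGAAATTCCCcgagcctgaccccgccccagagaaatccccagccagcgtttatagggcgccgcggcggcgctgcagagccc
TNFAIP3: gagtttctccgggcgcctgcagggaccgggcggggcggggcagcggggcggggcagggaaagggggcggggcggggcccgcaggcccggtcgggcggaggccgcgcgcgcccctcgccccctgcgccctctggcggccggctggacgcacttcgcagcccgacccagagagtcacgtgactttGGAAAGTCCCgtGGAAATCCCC
The 5 matches in these 3 genes are on the antisense strand, where that of NFKBIA reads GGGAATTTCC, those of TNFAIP3 read GGGACTTTCC and GGGGATTTCC, and those of BIRC3 read GGGGATTTCC and GGGGAACTCC. BIRC3 and TNFAIP3 thus share 1 identical 10-base match. NFKB1 holds the NFKBIA letters on its sense strand, and NFKB2 and IL32 also hold matches. ICAM1 and TNFAIP2 hold none in this window.

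The cells were read in 3 ways: whole libraries, EPCAM-positive cells (at least 1 UMI of the epithelial gene EPCAM and 0 of the collagen genes COL1A2 and COL3A1) and COL-positive cells (at least 1 UMI of COL1A2 or COL3A1 and 0 of EPCAM). In the 13 OS libraries with at least 50 cells of both classes, COL1A2, COL3A1 and EPCAM differed by construction. The other genes of a mesenchymal list, which the rule did not use, were all called higher in COL-positive cells, and those of the epithelial list and all 9 gut epithelial markers were called lower. These are 1-UMI classes and not cell types, and cells positive for both made up 1.934% to 59.67% of a library. Of 12 immune markers, 8 stayed at or under 0.334 CPM in every whole library, among them the pan-leukocyte gene PTPRC (34 UMIs in all) and C1QA (0 UMIs). The other 4 were LYZ, up to 571 CPM, CD68, up to 82.1 CPM, AIF1, with UMIs in all 19 libraries and up to 10.4 CPM, and TYROBP, up to 1.98 CPM. Kept cells numbered 3089 to 12427 per library and deposited UMIs 7476533 to 92522222, with the fewest in PA control replicate 1. The counts behind a whole-library value ran from 51 UMIs (BIRC3 in that library) to 71146 (IL32 in OA replicate 1). In COL-positive cells they were far fewer, down to 0 UMIs of BIRC3 in TGFB1 control replicate 1. No pair of libraries shared more than 32 cell barcodes, and the highest share of the smaller library, in another pair, was 0.581%. Kept cells of TGFB1 control replicate 1 had a median of 840 genes, against 2247 to 2757 in the other 3 libraries of that experiment, and cells with no UMI of EPCAM, COL1A2 or COL3A1 held 35.56% of its UMIs, against 1.37% to 1.82%. In the PA experiment the medians were 877 genes in control replicate 1 and 1199 in PA replicate 1, against 2512 and 2176 in the others.

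OA was the treatment in which all 9 genes rose. BIRC3 rose 21.8-fold, ICAM1 11.4-fold, IL32 10.7-fold and TNFAIP2 9.49-fold, while the other 5 rose between 2.41-fold and 3.67-fold. Folds and log2 fold changes here and below are edgeR estimates after TMM scaling between libraries, while CPM is scaled to library totals. Ratios of the printed CPM values therefore differ from these folds, and with OA in whole libraries they are smaller. In each gene both OA libraries lay above both OA control libraries, as 26.9% of all genes did. edgeR's quasi-likelihood test with Benjamini-Hochberg adjustment called 9 of 9 genes at an adjusted p under 0.05, all higher, against 43.3% of the 19366 genes tested in either direction and 21.7% higher (4197 genes higher and 4181 lower). The members' median log2 fold change was 1.88, against -0.08 over all genes.

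Of the feedback genes, BIRC3 stood at 199 and 171 CPM with OA and at 10.6 and 10.9 CPM in the OA control. The edgeR fit with TMM scaling gave a log2 fold change of 4.45, with an SE of 0.30 and an edgeR adjusted p of 8.96e-07. OA gave the highest BIRC3 level of the 9 groups, with no overlap with the next, PA. NFKBIA stood at 582 and 492 CPM with OA against 165 and 207 CPM (log2 fold change 1.88, SE 0.33, edgeR adjusted p 5.94e-04). TNFAIP3 stood at 65.3 and 53.7 CPM against 23.6 and 34.7 CPM (log2 fold change 1.38, SE 0.26, edgeR adjusted p 0.00103). All 3 were higher in both OA libraries than in either control.

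The subunit genes rose by similar amounts. NFKB1 stood at 34.1 and 38.5 CPM with OA against 17.3 and 18.3 CPM (log2 fold change 1.36, SE 0.17, edgeR adjusted p 4.20e-05). NFKB2 stood at 23.8 and 24.0 CPM against 11.6 and 13.5 CPM (log2 fold change 1.27, SE 0.16, edgeR adjusted p 4.91e-05). RELB stood at 28.2 and 31.1 CPM against 14.3 and 15.9 CPM (log2 fold change 1.31, SE 0.17, edgeR adjusted p 5.28e-05). The 3 intervals of 2 SE overlap, so the canonical p50 gene and the non-canonical p52 and RELB genes were not told apart by size.

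The target genes rose further. ICAM1 stood at 53.07 and 52.95 CPM with OA against 6.25 and 5.39 CPM (log2 fold change 3.52, SE 0.31, edgeR adjusted p 4.64e-06). TNFAIP2 stood at 73.0 and 94.7 CPM against 11.9 and 10.2 CPM (log2 fold change 3.25, SE 0.23, edgeR adjusted p 1.17e-06). IL32 stood at 1315.5 and 1176.7 CPM against 163 and 129 CPM (log2 fold change 3.42, SE 0.31, edgeR adjusted p 4.78e-06). The OA libraries were alike for ICAM1 and further apart for TNFAIP2, and in no target did they come near the control.

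**Figure D1:**
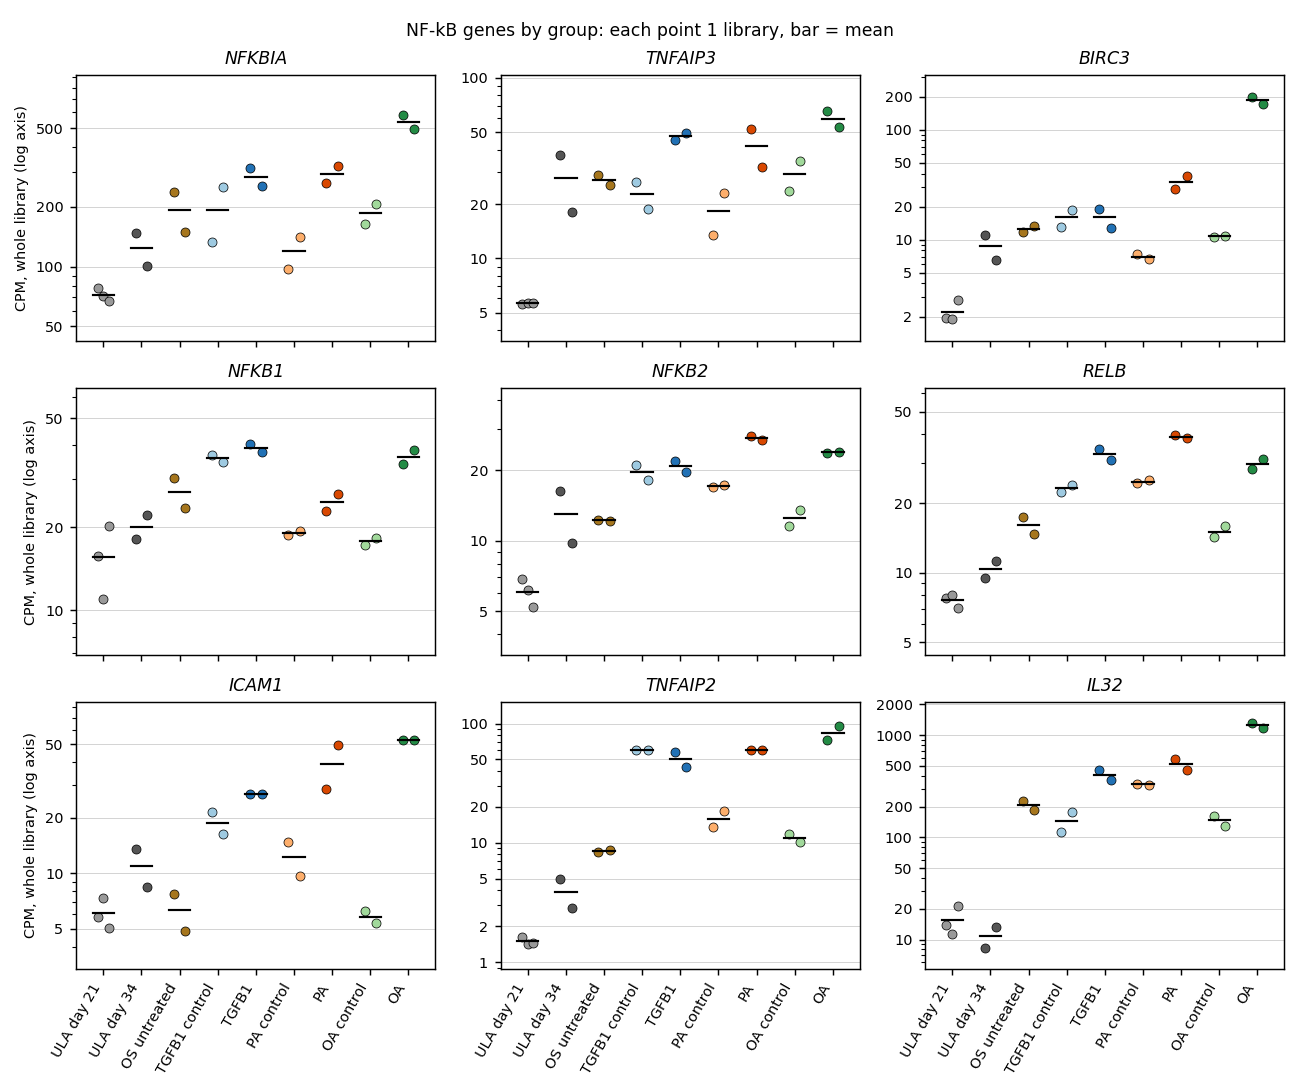
CPM in whole libraries on a log axis for each of the 9 genes (panels) in each of the 9 groups, where a point is 1 library and a bar the mean of its group. The OA libraries are the highest of all for BIRC3 (171 and 199 CPM), IL32, NFKBIA, TNFAIP3 and ICAM1, the ULA day 21 group has the lowest mean for all genes but ICAM1 and IL32, and TNFAIP2 is near 60 CPM both in the TGFB1 control and with PA.

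The cell composition moved with OA. EPCAM-positive cells were 88.44% and 88.4% of the OA cells and 32.37% and 23.1% of the control cells. COL-positive cells were 1.942% and 1.179% against 35.32% and 37.48%. Cells positive for both were 5.601% and 4.468% against 26.67% and 32.02%, and lie outside both classes. In the control the EPCAM-positive class thus leaves out a larger share of cells that have EPCAM. Sums over a whole library cannot tell a change in the share of a cell type from a change in RNA per cell, so the test was repeated within EPCAM-positive cells. There 9 of 9 genes rose, against 35.9% of the 17527 genes tested called in either direction and 19.1% called higher. The log2 fold changes were 3.96 for BIRC3 (SE 0.31, edgeR adjusted p 2.99e-06), 3.31 for ICAM1, 2.79 for IL32, 2.70 for TNFAIP2, 1.86 for TNFAIP3, 1.84 for NFKBIA, 1.22 for NFKB1, 1.06 for NFKB2 and 1.00 for RELB. BIRC3 in these cells stood at 200 and 174 CPM with OA against 11.0 and 17.9 CPM. TNFAIP3, which was higher in COL-positive than in EPCAM-positive cells of the control, had the larger change within EPCAM-positive cells (1.86 against 1.38 in whole libraries).

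EPCAM-positive cells differed between the OA groups in other ways that could not be told apart from these changes. The summed level of the 9 gut epithelial markers was 13964 to 18102 CPM with OA and 2151 to 3850 CPM in the control, and 6 of 9 were called higher. The 10 mesenchymal markers summed to 200 to 229 CPM against 967 to 1130 CPM, and the 9 cell cycle genes to 120 to 142 CPM against 359 to 367 CPM. The 12 immune markers summed to 545 to 557 CPM against 725 to 800 CPM, nearly all of it LYZ and CD68, while PTPRC reached at most 0.0679 CPM in EPCAM-positive cells of any library. CD68 itself rose in these cells (log2 fold change 2.42, SE 0.27, edgeR adjusted p 3.20e-05). The part of these differences in the NF-κB results was not tested.

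COL-positive cells were too few with OA for a test, at 60 and 38 cells. BIRC3 reached 64.7 and 46.98 CPM in them (23 and 11 UMIs) against 1.91 and 1.66 CPM in the OA control (20 and 24 UMIs in 1927 and 1160 cells), and IL32 reached 220 and 367 CPM against 14.9 and 8.76 CPM. The 6 epithelial markers were also higher in these COL-positive cells, summing to 3186 to 3271 CPM with OA against 795 to 843 CPM, and the part of epithelial transcripts in the BIRC3 and IL32 values was not tested.

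Other genes of the pathway were taken from 6 lists that hold 75 genes, of which 73 were tested in the OS libraries. With OA, 46 rose and 2 fell, against 21.7% of all genes called higher and 43.3% called in either direction, with a median log2 fold change of 1.09. All 12 other inhibitors rose, among them ZC3H12A, a ribonuclease that degrades inflammatory transcripts (101 ± 12 against 23.0 ± 1.1 CPM, SD, n = 2 each, log2 fold change 2.47, edgeR adjusted p 9.94e-06), and TNIP1, an A20-binding protein (113 ± 15 against 36.3 ± 2.4 CPM, log2 fold change 1.97, edgeR adjusted p 1.01e-05). Of 7 ligands tested, 6 rose, with IL1A at 47.1 ± 1.2 against 2.99 ± 0.10 CPM (log2 fold change 4.31, edgeR adjusted p 3.93e-06) and IL1B at 10.6 ± 3.1 against 0.421 ± 0.317 CPM (5.01, edgeR adjusted p 1.24e-05). Leaving out 1 library, the IL1B value ran from 4.45 to 5.98. Of 21 other targets, 14 rose and 1 fell, and IRF1, an interferon regulatory factor, stood at 96.0 ± 8.2 against 30.8 ± 1.2 CPM (1.98, edgeR adjusted p 9.26e-06). Of 11 receptors, 5 rose, and of 20 adaptors and kinases, 8 rose and 1 fell. With library totals in place of TMM scaling, which lowers the median of all genes from -0.08 to -0.43 on the log2 scale, the split of all called genes became 2628 higher and 5952 lower, and all 9 members stayed higher and called.

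PA raised 2 of the 9 genes past the threshold, BIRC3 and TNFAIP2, and the other 7 stood higher in both PA libraries without passing it. BIRC3 rose 4.99-fold and TNFAIP2 3.88-fold. This comparison called 9 of 19366 genes in all, or 0.0465%, all of them higher, while an unadjusted p under 0.05 was reached by 540. All 9 members had an unadjusted p under 0.05, and in all 9 both PA libraries lay above both controls, as 8.38% of all genes did. Their median log2 fold change was 1.24, against 0.02 over all genes.

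BIRC3 stood at 28.7 and 37.7 CPM with PA and at 7.41 and 6.64 CPM in the PA control (log2 fold change 2.32, SE 0.29, edgeR adjusted p 0.0103). TNFAIP2 stood at 60.02 and 59.72 CPM against 13.5 and 18.4 CPM (log2 fold change 1.96, SE 0.22, edgeR adjusted p 0.0103). TNFAIP2 was nearly equal in the PA libraries, and BIRC3 was further apart. ICAM1, the gene nearest to the threshold, stood at 28.7 and 49.8 CPM against 14.8 and 9.65 CPM (log2 fold change 1.77, SE 0.30, edgeR adjusted p 0.0670).

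The remaining feedback genes had log2 fold changes of 1.36 for NFKBIA (SE 0.33, edgeR adjusted p 0.428) and 1.24 for TNFAIP3 (SE 0.27, edgeR adjusted p 0.273). TNFAIP3 stood at 51.8 and 32.0 CPM against 13.5 and 23.0 CPM, so its libraries were spread within both groups. The subunits had smaller values with tight libraries. NFKB2 stood at 28.02 and 26.92 CPM against 17.0 and 17.3 CPM (0.74, SE 0.16, edgeR adjusted p 0.283), RELB at 39.5 and 38.5 against 24.4 and 25.4 CPM (0.70, SE 0.17, edgeR adjusted p 0.415) and NFKB1 at 22.9 and 26.6 against 18.7 and 19.5 CPM (0.43, SE 0.17, edgeR adjusted p 1). IL32 stood at 582 and 456 CPM against 334 and 324 CPM (0.71, SE 0.28, edgeR adjusted p 1). RELB and NFKB2 were at their highest with PA among the 9 groups, above OA. The PA libraries did not overlap those of the next group. PA and OA each have their own control, and their matrices came from different software versions. The PA control was also above the OA control, at 24.9 against 15.1 CPM for RELB and 17.1 against 12.5 CPM for NFKB2. This order therefore does not rank the PA and OA effects.

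Within EPCAM-positive cells the same pair was called, BIRC3 (log2 fold change 2.24, SE 0.31, edgeR adjusted p 0.0211) and TNFAIP2 (1.99, SE 0.22, edgeR adjusted p 0.00524), against 0.103% of 17527 genes. In these cells edgeR called 0 members once either PA control library or PA replicate 2 was left out. In COL-positive cells (229 to 577 cells per library) edgeR called 0 of 14189 genes, or 0%, while DESeq2 called 18 and 581 had an unadjusted p under 0.05. All 9 members again had higher values with PA, 7 of them at an unadjusted p under 0.05, with ICAM1 at 1.89 (SE 0.45, edgeR adjusted p 0.311) and IL32 at 1.27 (SE 0.31, edgeR adjusted p 0.369). Counts were very low in PA control replicate 1. Its COL-positive cells held 1.961% of that library's 102 ICAM1 UMIs and 3.226% of its 93 TNFAIP2 UMIs, which limits the precision of these changes. The difference of the PA effect between the classes was called in 2 of 18747 genes, or 0.0107%, and in 0 members by edgeR, none of which had an unadjusted p under 0.05. The members' differences ran from -0.70 to 0.57, with intervals of 2 SE as wide as -2.51 to 1.21 for BIRC3. Neither a difference between the classes nor equal effects in them were thus shown. None of the marker lists had a gene called between PA and its control in whole libraries, where 0.0465% of all genes were called. With so few calls this cannot show that the cell shares were unchanged. The mesenchymal list summed to 948 to 1511 CPM with PA against 1147 to 2179 CPM.

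**Figure D2:**
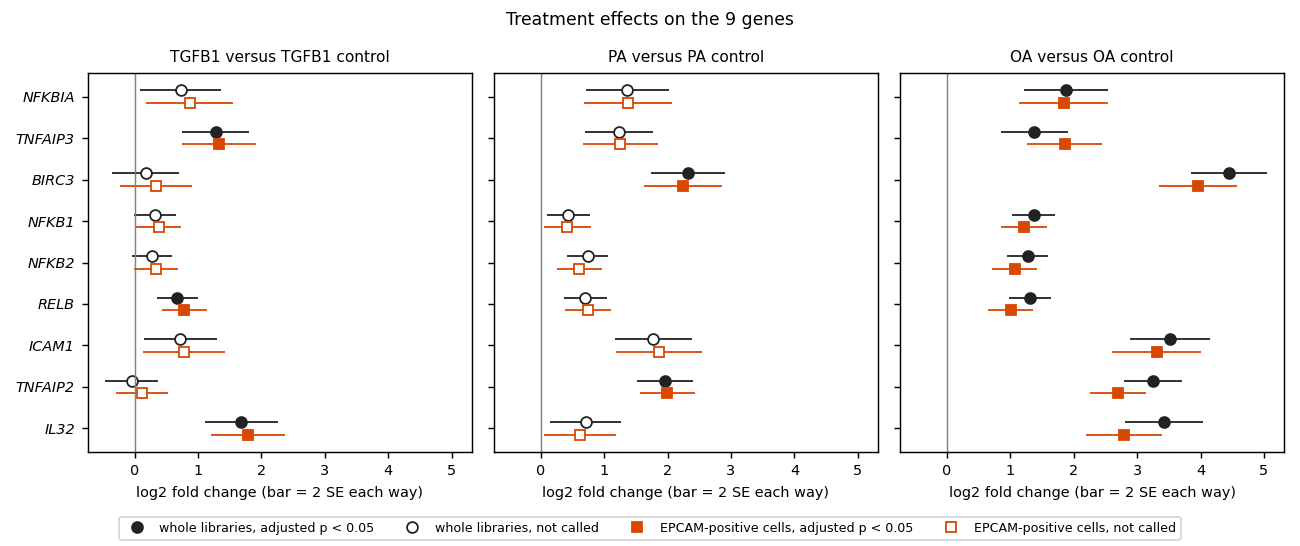
Log2 fold change of each gene against its own control for TGFB1, PA and OA, in whole libraries (circles) and in EPCAM-positive cells (squares), with bars of 2 SE each way and filled symbols for edgeR adjusted p under 0.05. All 9 genes are filled with OA, BIRC3 and TNFAIP2 with PA, and TNFAIP3, RELB and IL32 with TGFB1.

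The PA calls depended on single libraries. Of the 9 members, 0 were called without PA control replicate 1 or without PA control replicate 2, 3 without PA replicate 1 and 1 without PA replicate 2. BIRC3 kept a log2 fold change between 2.11 and 2.51 with edgeR adjusted p from 0.0137 to 0.790, and TNFAIP2 one between 1.83 and 2.15 with edgeR adjusted p from 0.0151 to 0.382. Leaving out a library leaves its group with 1, which is assumed to vary like the other groups. With a replicate block edgeR called neither BIRC3 nor TNFAIP2 in whole libraries. DESeq2 called 7 members and 54 genes.

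**Figure D3:**
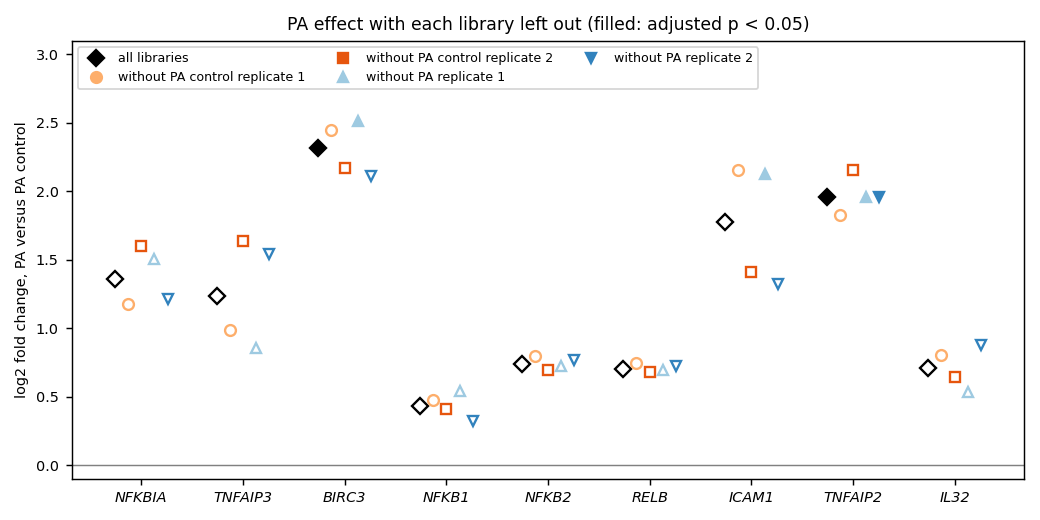
Log2 fold change of each gene between PA and its control with all 4 libraries and with each left out in turn, filled where edgeR's adjusted p is under 0.05. Every value is above 0, BIRC3 stays between 2.11 and 2.51, and ICAM1 passes the threshold only without PA replicate 1.

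In the pathway lists, PA raised 4 of 73 genes and lowered 0, against 0.0465% of all genes. CXCL1, CXCL2 and CXCL3 encode chemokines that attract neutrophils. CXCL2 stood at 187 ± 70 against 42.3 ± 1.7 CPM (SD, n = 2 each, log2 fold change 2.20, edgeR adjusted p 0.0103), CXCL1 at 460 ± 221 against 75.3 ± 4.1 CPM (2.67, edgeR adjusted p 0.0353) and CXCL3 at 284 ± 90 against 56.3 ± 4.5 CPM (2.39, edgeR adjusted p 0.0353). The fourth was the ligand TNF, at 16.8 ± 3.3 against 4.57 ± 1.15 CPM (1.99, edgeR adjusted p 0.0408). These calls also depended on single libraries. Over the 4 fits that leave out 1 library, CXCL1, CXCL3 and TNF each lost the call in 3, with edgeR adjusted p up to 0.982, 0.982 and 1.0, and CXCL2 in 2, without either control library (edgeR adjusted p 0.175 and 0.589). All 4 kept their calls without PA replicate 1. Of the 9 genes called with all libraries, 6 were members or genes of these lists. The members and lists were chosen with earlier results of these data known, so this count is a description and not independent evidence.

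PA and OA were given at the same labelled dose of 500 µM for the same day of collection, each with its own control. The difference between their effects was tested in the 1 fit that holds both, and these experiments were also processed with different software versions, which cannot be told apart from the difference itself. The PA effect was smaller than the OA effect in 5 of 9 members, against 20.5% of 19366 genes that differed in either direction and 10.2% with the smaller PA effect. The differences in log2 fold change, PA minus OA, were -2.71 for IL32 (SE 0.40, edgeR adjusted p 7.45e-04), -2.13 for BIRC3 (SE 0.39, edgeR adjusted p 0.00234), -1.74 for ICAM1 (SE 0.41, edgeR adjusted p 0.0104), -1.29 for TNFAIP2 (SE 0.30, edgeR adjusted p 0.00984) and -0.93 for NFKB1 (SE 0.24, edgeR adjusted p 0.0141). All 3 targets and the feedback gene BIRC3 were thus among the genes with the smaller PA effect in whole libraries. Whole-library sums also hold the change in cell shares seen with OA, and its part in these differences was not tested. In EPCAM-positive cells, given below, ICAM1, TNFAIP2 and NFKB1 were not called. Without OA control replicate 2 edgeR called 2 members, and without PA control replicate 2 it called 3. Of all genes called, 2002 had the larger and 1969 the smaller PA effect, or 2715 and 1242 with library totals.

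TNFAIP3 had a difference of -0.14 with an interval of 2 SE from -0.88 to 0.59, and with library totals it turned to 0.14. NFKBIA had -0.52 (interval -1.42 to 0.39). Both intervals reach well below 0, so equal effects of PA and OA on TNFAIP3 and NFKBIA were not shown. RELB and NFKB2 were not called either. Leaving out 1 library, their differences ran from -0.66 to -0.54 for RELB and from -0.55 to -0.48 for NFKB2. In EPCAM-positive cells 2 members had the smaller PA effect, against 15% of 17527 genes that differed in either direction and 8.62% in this one: IL32 by -2.17 (SE 0.40, edgeR adjusted p 0.00410) and BIRC3 by -1.71 (SE 0.41, edgeR adjusted p 0.0145). The BIRC3 call was lost without PA control replicate 1, OA control replicate 1 or OA replicate 1, with edgeR adjusted p from 0.0185 to 0.0638 over the 8 fits that leave out 1 library, and IL32 kept its call in all 8.

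TGFB1 raised 3 of the 9 genes, 1 from each role: the feedback gene TNFAIP3, the subunit gene RELB and the target IL32. IL32 rose 3.21-fold, TNFAIP3 2.43-fold and RELB 1.598-fold. The comparison called 4295 of 19366 genes, or 22.2%, and 10.9% as higher. In 7 of 9 members both TGFB1 libraries lay apart from both controls, 6 of them above, while 23.7% of all genes lay above. Of all called genes 2104 were higher and 2191 lower, and with library totals in place of TMM 1415 were higher and 3065 lower. The members' median log2 fold change was 0.68, against -0.05 over all genes.

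IL32 stood at 456 and 366 CPM with TGFB1 against 114 and 175 CPM in its control (log2 fold change 1.68, SE 0.29, edgeR adjusted p 0.00118). TNFAIP3 stood at 45.3 and 49.4 CPM against 26.6 and 18.8 CPM (log2 fold change 1.28, SE 0.26, edgeR adjusted p 0.00426). RELB stood at 34.5 and 30.9 CPM against 22.5 and 24.1 CPM (log2 fold change 0.68, SE 0.17, edgeR adjusted p 0.0110). RELB lost its call without TGFB1 control replicate 1 or TGFB1 replicate 1, with edgeR adjusted p between 0.00618 and 0.122 over the 4 fits that leave out 1 library.

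NFKBIA and ICAM1 had values of similar size to RELB and did not pass, with 0.73 (SE 0.32, edgeR adjusted p 0.124) and 0.72 (SE 0.29, edgeR adjusted p 0.0880). NFKBIA's control libraries stood far apart, at 133 CPM in replicate 1, the library with few genes per cell, and 252 CPM in replicate 2, against 315 and 254 CPM with TGFB1. Without control replicate 2 NFKBIA was called (log2 fold change 1.40, edgeR adjusted p 0.00606), and without control replicate 1 its value was 0.27 (edgeR adjusted p 0.618). Leaving out 1 library gave 2 to 4 called members. BIRC3, the gene that led with OA and PA, stood at 19.1 and 12.9 CPM with TGFB1 and 13.2 and 18.7 CPM in the control, a log2 fold change of 0.17 (interval of 2 SE -0.36 to 0.71) that became -0.0037 with library totals. TNFAIP2 stood at 57.2 and 43.5 against 59.5 and 59.6 CPM, a log2 fold change of -0.05 (interval -0.47 to 0.38). The TGFB1 control was already high for TNFAIP2, NFKB1 (36.9 and 34.7 CPM) and ICAM1 (21.4 and 16.3 CPM) relative to the OA control, whose matrices came from another software version.

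Within EPCAM-positive cells TGFB1 raised the same 3 genes, against 25% of 17527 genes called in either direction and 12.3% called higher: IL32 by 1.80 (SE 0.29, edgeR adjusted p 5.26e-04), TNFAIP3 by 1.33 (SE 0.29, edgeR adjusted p 0.00478) and RELB by 0.78 (SE 0.18, edgeR adjusted p 0.00570). Here too RELB lost its call without TGFB1 replicate 1 (edgeR adjusted p 0.0696), and leaving out 1 library gave 2 to 4 called members. These cells also carried other marker genes with TGFB1. The mesenchymal list summed to 5719 to 6714 CPM against 592 to 1258 CPM, with 3 of 8 tested genes called higher, although COL1A2 and COL3A1 are 0 there by the class rule. The cell cycle list summed to 57.0 to 65.4 CPM against 350 to 498 CPM, with 8 of 9 called lower. The part of these differences in the NF-κB results was not tested.

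In COL-positive cells (333 to 660 cells per library) edgeR called 3 of 14189 genes with TGFB1, or 0.0211%, and 0 members. An unadjusted edgeR p under 0.05 was reached by 1 member and by 1896 of the 14189 genes. DESeq2 also called 0 members, and the members' log2 fold changes under edgeR ran from -0.64 to 0.97. The TGFB1 effect on TNFAIP3 was smaller in COL-positive than in EPCAM-positive cells, by a log2 difference of -1.47 (interval of 2 SE -2.01 to -0.92, SE 0.27, edgeR adjusted p 0.00109, or 0.0668 without TGFB1 control replicate 2), in a test that called 6.32% of 18747 genes, 3.71% with the smaller effect in COL-positive cells. TNFAIP3 stood at 36.6 and 40.7 CPM with TGFB1 and at 57.8 and 45.6 CPM in the control in COL-positive cells, against 45.2 and 50.2 over 27.8 and 17.0 CPM in EPCAM-positive cells. TNFAIP3 was thus higher in the EPCAM-positive cells of both TGFB1 libraries and in the COL-positive cells of both control libraries. ICAM1 had a difference of -1.14 (SE 0.38, edgeR adjusted p 0.0839), which ran from -1.88 to -0.68 leaving out 1 library.

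TGFB1 raised 18 of 73 pathway genes and lowered 2, against 10.9% of all genes called higher and 22.2% called in either direction. IL1A stood at 13.8 ± 1.3 against 2.45 ± 0.83 CPM (SD, n = 2 each, log2 fold change 2.76, edgeR adjusted p 1.86e-04) and TNF at 5.51 ± 0.76 against 1.59 ± 0.19 CPM (1.95, edgeR adjusted p 7.17e-04). PLAUR, the urokinase receptor, stood at 73.4 ± 27.5 against 11.9 ± 1.8 CPM (2.80, edgeR adjusted p 2.49e-04). The monocyte chemokine CCL2 stood at 283 ± 56 against 32.9 ± 11.2 CPM (3.27, edgeR adjusted p 8.59e-04). The receptor TNFRSF12A stood at 422 ± 111 against 78.6 ± 43.3 CPM (2.58, edgeR adjusted p 0.00106). Its value ran from 2.045 to 3.446 leaving out 1 library. Of the other targets 8 of 21 rose, and of the other inhibitors 1 of 12 rose and 1 fell, where all 12 rose with OA, a contrast that was not tested.

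The OA control could be set against untreated shaker organoids. Of 19366 genes edgeR called 111, or 0.573%, and 0 of the 9 members, while DESeq2 called 702 genes. An unadjusted edgeR p under 0.05 was reached by 2 members and by 2822 of the 19366 genes. The members' log2 fold changes ran from -0.44 for NFKB1 to 0.52 for TNFAIP2. BIRC3 stood at 10.6 and 10.9 CPM in the OA control and 11.7 and 13.3 CPM in untreated organoids, and ICAM1 at 6.25 and 5.39 against 7.73 and 4.86 CPM. The pathway lists had 0 genes called of 73. In EPCAM-positive cells 1.28% of genes and in COL-positive cells 0.0352% of genes were called, with 0 members in either.

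In ULA organoids, day 34 exceeded day 21 in 4 of the 9 genes: TNFAIP3, BIRC3, TNFAIP2 and NFKB2. TNFAIP3 stood at 37.4 and 18.1 CPM on day 34 against 5.56, 5.66 and 5.66 CPM on day 21 (log2 fold change 2.17, SE 0.29, edgeR adjusted p 0.00510). BIRC3 stood at 11.0 and 6.57 CPM against 1.93, 1.91 and 2.81 CPM (log2 fold change 1.86, SE 0.31, edgeR adjusted p 0.0105). The day 21 libraries were the lowest of all groups for both genes and lay close together, and the day 34 libraries lay further apart.

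TNFAIP2 stood at 4.95 and 2.85 CPM on day 34 against 1.62, 1.41 and 1.46 CPM on day 21 (log2 fold change 1.25, SE 0.30, edgeR adjusted p 0.0328). NFKB2 stood at 16.3 and 9.84 CPM against 6.84, 6.14 and 5.21 CPM (log2 fold change 0.98, SE 0.25, edgeR adjusted p 0.0405). Among 22261 genes 15.6% were called and 8.43% were called higher, 1876 higher and 1600 lower, or 2596 higher and 1304 lower with library totals, and the members' median log2 fold change was 0.72 against 0.01 over all genes. Every member called on day 34 was higher in replicate 1 than in replicate 2. Without day 34 replicate 2 edgeR called 7 members, and without any 1 of the day 21 libraries it called 1, and with a replicate block 0.

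IL32 was lower in whole day 34 libraries on average and higher in their COL-positive cells. In whole libraries it stood at 8.29 and 13.2 CPM on day 34 against 13.9, 11.2 and 21.1 CPM (log2 fold change -0.65, SE 0.33, edgeR adjusted p 0.216). In COL-positive cells it stood at 10.6 and 9.28 CPM against 3.22, 2.18 and 2.98 CPM and rose (log2 fold change 1.71, SE 0.23, edgeR adjusted p 0.00358). In EPCAM-positive cells IL32 stood at 33.3 to 46.3 CPM on day 21. These cells made up 18.33%, 11.73% and 18.84% of cells on day 21 and 0.5317% and 6.011% on day 34. Cells positive for both EPCAM and a collagen gene are outside this class. They made up 42.53%, 29.84% and 36.75% on day 21 and 49.63% and 59.67% on day 34. The lower share is thus one of cells with EPCAM and no collagen UMI. EPCAM-positive cells of day 34 replicate 1 numbered 23, so no test was made in that class. In replicate 2, with 747 such cells, IL32 stood at 57.1 CPM and BIRC3 at 33.6 CPM, against 2.44 to 4.55 CPM for BIRC3 on day 21. In the 23 cells of replicate 1 BIRC3 stood at 3.80 CPM, from 0.1164% of that library's 859 BIRC3 UMIs. This is at the floor of counting and too little to set against the day 21 range. Most day 34 BIRC3 UMIs lay in cells positive for both EPCAM and a collagen gene, 94.99% in replicate 1 and 65.11% in replicate 2, where these cells held 55.28% and 70.69% of the UMIs of all genes. On day 21 such cells held 39.23% to 63.2% of the BIRC3 UMIs and 36.71% to 48.51% of all UMIs. The day 34 values of BIRC3 in whole libraries therefore come mainly from cells outside both classes. An automatic doublet call marked 12.594% of kept cells in day 34 replicate 2 and 0.046% in replicate 1. The part of doublets among cells positive for both was not tested.

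In COL-positive ULA cells 4 members rose, against 17.7% of 17414 genes called in either direction and 10.5% called higher: IL32, TNFAIP3 (log2 fold change 1.52, SE 0.37, edgeR adjusted p 0.0274), NFKB2 (1.18, SE 0.24, edgeR adjusted p 0.0150) and RELB (0.62, SE 0.18, edgeR adjusted p 0.0474). Without any 1 of the day 21 libraries edgeR called 1 of them, IL32, and with a replicate block 2. Leaving out 1 library of either day, the log2 fold change ran from 0.63 to 2.07 for TNFAIP3 and from 1.57 to 1.825 for IL32. The labels add a wash and a trypsin step of 10 minutes to the dissociation at day 34. A list of 11 dissociation and immediate early genes summed to 2445 to 3972 CPM on day 34 against 572 to 1235 CPM on day 21 in whole libraries, with 4 of 11 called higher. The 6 squamous markers summed to 442 to 1807 CPM against 21.1 to 38.1 CPM, with 6 of 6 called higher, and 8 of 9 gut markers were called lower. In the COL-positive cells the 6 epithelial markers summed to 550 to 1635 CPM against 677 to 885 CPM. The part of these differences in the NF-κB results was not tested.

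Of the pathway lists, 14 of 70 tested genes rose on day 34 and 2 fell, against 8.43% of all genes called higher and 15.6% called in either direction. PTGS2, the inducible cyclooxygenase, stood at 33.4 ± 13.4 (SD, n = 2) against 1.82 ± 0.23 CPM (n = 3), a log2 fold change of 4.07 (edgeR adjusted p 0.00101). IL1RAP, a coreceptor for interleukin-1, stood at 20.1 ± 0.6 against 5.81 ± 0.54 CPM (1.66, edgeR adjusted p 0.00237). TRADD, an adaptor of the tumour necrosis factor receptor, stood at 24.6 ± 2.0 against 8.57 ± 1.47 CPM (1.39, edgeR adjusted p 0.00484). IL1A and IL1B rose by 2.27 and 2.95 (edgeR adjusted p 0.00602 and 0.00401) from 0.359 ± 0.035 and 0.119 ± 0.027 CPM. IL1A lost its call without day 21 replicate 3 (edgeR adjusted p 0.0521).

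The 2 cell classes of the same library differed in most of these genes. In the 13 OS libraries with both classes, compared within libraries, 8 of 9 members differed, against 58.2% of 18747 genes. Of the 8, 7 were lower in COL-positive cells, as 33.2% of genes were, and TNFAIP3 was higher, as 25% were. IL32 was lower (difference -3.36 in log2 units, SE 0.20, edgeR adjusted p 2.02e-10) as was BIRC3 (-2.99, SE 0.19, edgeR adjusted p 4.26e-10), and both were higher in EPCAM-positive cells in 13 of 13 libraries. BIRC3 ran from 7.31 to 200 CPM in EPCAM-positive cells, and in COL-positive cells outside OA it did not exceed 4.68 CPM. TNFAIP2 was also higher in EPCAM-positive cells in 13 of 13 libraries, with a difference of -1.87 (SE 0.14, edgeR adjusted p 4.84e-09).

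The subunits and NFKBIA differed less. The differences were -0.61 for NFKB2 (SE 0.09), -0.54 for NFKBIA (SE 0.13), -0.49 for NFKB1 (SE 0.09) and -0.46 for RELB (SE 0.11), with edgeR adjusted p of 2.69e-05, 0.00196, 2.13e-04 and 0.00130. NFKB1 and NFKB2 were each higher in EPCAM-positive cells in 12 of 13 libraries, NFKBIA in 10 and RELB in 9. TNFAIP3 was higher in COL-positive cells by 0.62 (SE 0.18, edgeR adjusted p 0.00640), in 10 of 13 libraries. The other 3 were both TGFB1 libraries and OA replicate 1. ICAM1 had -0.39 (SE 0.18, edgeR adjusted p 0.0667), with 8 libraries higher in one class and 5 in the other.

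**Figure D4:**
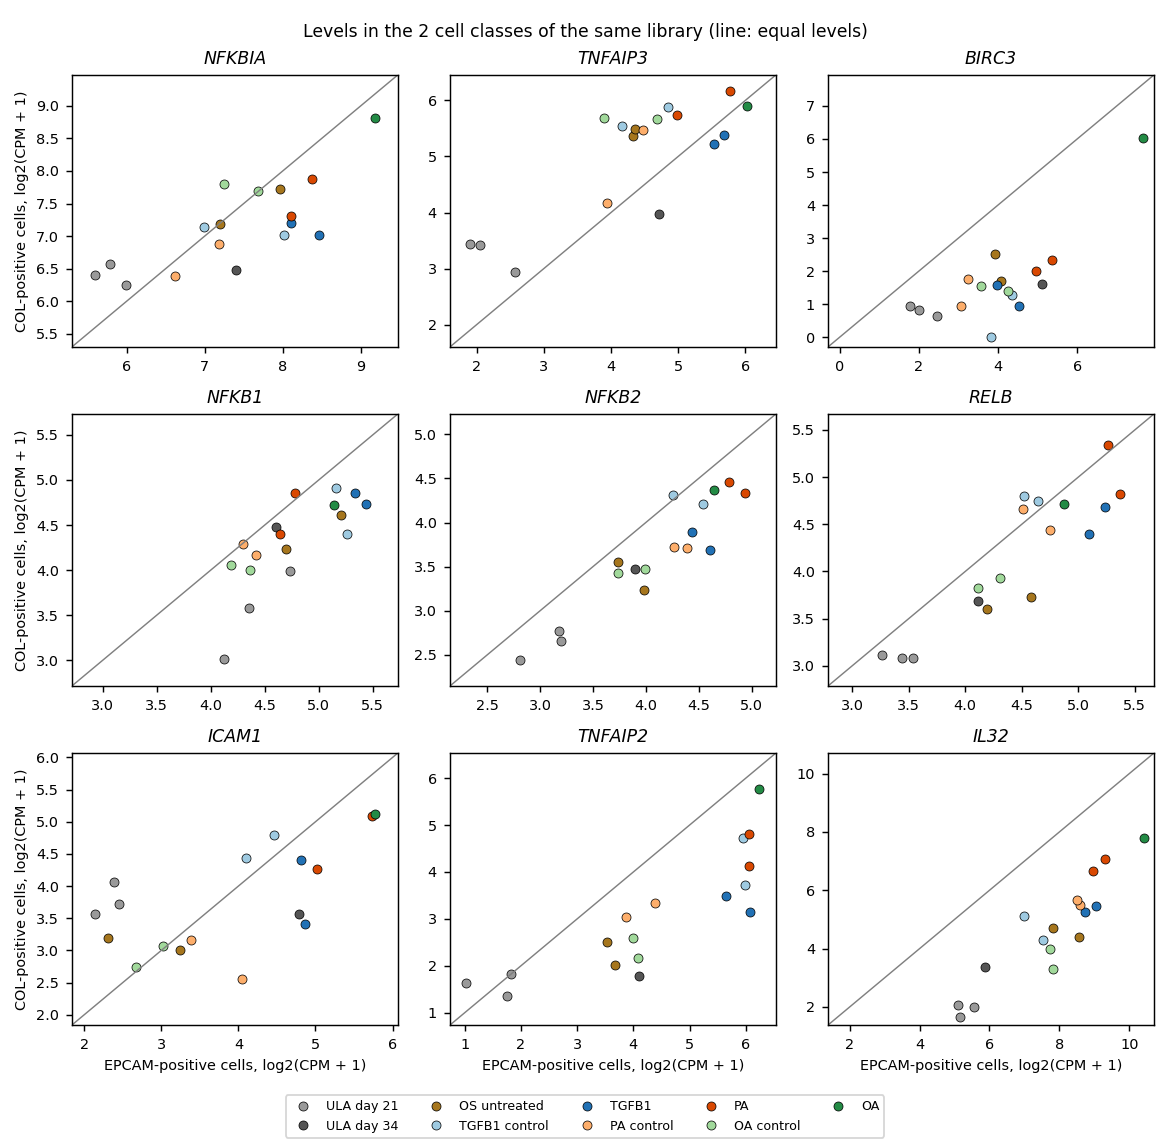
Level of each gene in EPCAM-positive (x axis) and COL-positive cells (y axis) of the same library, both as log2(CPM + 1), for the 17 libraries with at least 50 cells of each class, coloured by group, with a line of equal levels. BIRC3 and IL32 lie below the line in all 17 libraries, and TNFAIP3 lies above it in 13.

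In the 4 ULA libraries with both classes, 5 members were lower in COL-positive cells, against 51.8% of 19879 genes called in either direction and 27.3% called lower: IL32 (-3.67, SE 0.30, edgeR adjusted p 5.01e-04), BIRC3 (-2.87, SE 0.43, edgeR adjusted p 0.00313), NFKB1 (-0.95, SE 0.22, edgeR adjusted p 0.0132), NFKB2 (-0.71, SE 0.14, edgeR adjusted p 0.00737) and RELB (-0.59, SE 0.12, edgeR adjusted p 0.0101). The other 4 did not pass. Without day 34 replicate 2 edgeR called 8 members, and without day 21 replicate 1 it called 2. BIRC3 and IL32 thus had the largest differences between the classes among the 9 genes in both culture formats. In COL-positive cells of the OA libraries, as given above, they were present at 46.98 CPM or more.

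Across all 9 groups the order of levels differed by gene. The labels name no batch or run, and the matrices came from different software versions, so these levels are set side by side as a description. For BIRC3 the order ran from OA (185 ± 19 CPM, SD, n = 2) through PA (33.2 ± 6.4), TGFB1 (16.0 ± 4.4), TGFB1 control (15.9 ± 4.0), untreated (12.5 ± 1.1), OA control (10.7 ± 0.2), ULA day 34 (8.802 ± 3.158) and PA control (7.03 ± 0.54) to ULA day 21 (2.22 ± 0.52, n = 3). TGFB1 overlapped its control, the control overlapped untreated, and the OA control and ULA day 34 each overlapped the group that follows. IL32 ran from 1246 ± 98 CPM with OA through 519 ± 89 with PA, 411 ± 64 with TGFB1 and 329 ± 7 in the PA control to 15.4 ± 5.1 and 10.8 ± 3.5 CPM on ULA days 21 and 34, which overlapped. TNFAIP2 was close to equal with PA (59.9 ± 0.2 CPM) and in the TGFB1 control (59.5 ± 0.1), with 15.9 ± 3.4 CPM in the PA control. The 3 shaker controls therefore did not share 1 baseline, and the changes above hold only against each treatment's own control.

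NFKBIA ran from 537 ± 64 CPM with OA through PA (294 ± 41) and TGFB1 (284 ± 43), which overlapped, to 72.1 ± 5.6 CPM on ULA day 21. TNFAIP3 ran from 59.5 ± 8.2 CPM with OA to 5.62 ± 0.06 CPM on ULA day 21, and all neighbours from TGFB1 (47.4 ± 2.9) down to the PA control (18.3 ± 6.7) overlapped. ICAM1 ran from 53.01 ± 0.08 CPM with OA through PA (39.3 ± 14.9) and TGFB1 (26.9 ± 0.03) to 5.82 ± 0.61 CPM in the OA control. The subunit genes had another order. NFKB1 was highest with TGFB1 (38.9 ± 1.8 CPM), which overlapped OA (36.3 ± 3.1), and OA overlapped the TGFB1 control (35.8 ± 1.5). NFKB2 was highest with PA (27.5 ± 0.8 CPM), then OA (23.9 ± 0.1), and RELB with PA (39.0 ± 0.7 CPM), then TGFB1 (32.7 ± 2.6), which overlapped OA (29.6 ± 2.1).

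Genes with a similar pattern were found over the 14 OS libraries as those with the smallest mean absolute difference in log2(CPM + 1), each gene centred on its own mean. This is a description, and the libraries share their groups, depth and processing. NFKB2 and RELB were each other's nearest gene, at 0.14. BIRC3 was nearest to IL17C and DEFB4A (0.36 and 0.40, against a median of 1.17 over all genes), a cytokine and an antimicrobial peptide of epithelia. ICAM1 was nearest to CXCL1 and C2CD4B (0.32 and 0.33), and TNFAIP2 to ICAM1 (0.36). IL32 was nearest to CCL3L1 (0.35) and CCNYL1 (0.355), TNFAIP3 to EHD4 and TAP1 (0.24 and 0.25), NFKBIA to TIFA and PTAFR (0.24 and 0.26) and NFKB1 to AGFG1 and MYO6 (0.10 and 0.11). The mean profile of the 9 genes was nearest to PTAFR, CTSS and EBI3 (0.23 each), TNIP1 (0.26) and MIR3142HG (0.27), against a median of 0.71.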

How the data were processed

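Libraries were 10x Genomics 3′ single-cell RNA sequencing. The deposited matrices hold counts of UMIs per gene and cell, not normalized. Per the file headers, the OA, OA control and untreated matrices came from Cell Ranger 6.0.2 and the others from software version 3.0.2. The submitters' processing notes list bcl2fastq, Cell Ranger 3.0.2, Scanpy and GRCh38.

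Kept cells had at least 500 genes and no more than 20% of counts from mitochondrial genes, and no doublets were removed except in an alternative. Counts were summed per library, or per library and class with at least 50 cells, and tested with edgeR 4.0.16 (quasi-likelihood, TMM scaling, filterByExpr, Benjamini-Hochberg adjustment over all genes tested, threshold 0.05). The 14 OS libraries shared 1 fit and the 5 ULA libraries another, and classes were compared with the library as a block. An SE is the absolute log2 fold change over the root of the F statistic. The whole-library OS fit was run on simulated counts with the same dispersion for every gene and few changed genes. That run does not test the fit under changes as broad as those with OA. The members and lists were chosen with earlier results of these data known. The pathway genes named are, per comparison, the up to 5 with the smallest adjusted p among those past the threshold whose groups do not overlap in CPM. For likeness the 2 nearest genes of each member, and the 5 nearest to the mean profile, were taken. CD68, LYZ, PTPRC, AIF1, TYROBP and C1QA were named after their values were seen. Alternatives were library totals, DESeq2 1.42.0, a replicate block, no low count filter, stricter cells, doublets removed, 2 UMIs for a class and leaving out each library. Replicate numbers are not stated to pair libraries.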

Additional observations from a re-analysis of the deposited data

Results flagged for a closer look

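No group has the 4 libraries that a check for a library far from its group needs. Each value below is a difference between 2 effects that passed edgeR's test of the difference itself, in log2 units.

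The PA effect was smaller than the OA effect on IL32 (-2.71), BIRC3 (-2.13), ICAM1 (-1.74), TNFAIP2 (-1.29) and NFKB1 (-0.93) in whole libraries. In EPCAM-positive cells it was smaller on IL32 (-2.17) and BIRC3 (-1.71). The TGFB1 effect on TNFAIP3 was smaller in COL-positive than in EPCAM-positive cells (-1.47).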

How the results depend on the processing

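Over 1420 alternative values for single genes, 1408 kept their direction and 12 turned. Of those that kept it, 87 lost a call and 37 gained one. These alternatives mostly share the same libraries. The 9 OA calls held in whole libraries and EPCAM-positive cells under every alternative run.

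Counts of genes that moved by over 1.5 times follow. PA called 17 genes with library totals, 54 with DESeq2, 162 with no low count filter, 16 with only its 2 groups and 0 to 20 leaving out a library, and 7 members with DESeq2, 5 with no filter and 0 to 3 leaving out a library. OA called 5171 to 6570 genes and TGFB1 1704 to 5554 leaving out a library, and TGFB1 5 members with no filter. OA control against untreated called 255 genes with library totals, 702 with DESeq2, 523 with no filter, 0 with only its 2 groups and 0 to 164 leaving out a library. ULA day 34 against day 21 called 697 to 7166 genes and 1 to 7 members leaving out a library, and 1 to 6 members in COL-positive cells. PA minus OA called 2 to 5 members leaving out a library. In EPCAM-positive cells DESeq2 called 5 members with PA and 4 for PA minus OA, and leaving out a library gave 0 to 3 and 1 to 3. The TGFB1 difference between classes had 2 members with doublets removed, with 2 UMIs for a class and at most when leaving out a library (1 to 2). The ULA class difference had 2 to 8.

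With a replicate block PA called 4 genes and 0 members, and 1 member in EPCAM-positive cells, OA control against untreated 0 genes, and ULA day 34 against day 21 0 genes and 0 members, with 2 members in COL-positive cells. Same-numbered libraries' deviations correlated at -0.222 for TGFB1, 0.0887 for PA, 0.0408 for OA, -0.44 for OA control against untreated, and -0.165 and -0.269 for ULA. A block with crossed numbers, chosen after seeing the data, called 4155 genes and 4 members for TGFB1 and 28 genes for OA control against untreated.

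Directions turned for BIRC3 with TGFB1 (-0.0037 with library totals, -0.14 to 0.59 leaving out a library), for TNFAIP2 with TGFB1 (-0.26 to 0.15, and in EPCAM-positive cells -0.080 with library totals and -0.12 to 0.34), and for TNFAIP3 in PA minus OA (0.14 with library totals, -0.52 to 0.31). The cause was not tested. OA in COL-positive cells, ULA in EPCAM-positive cells and a stricter cell filter for PA in COL-positive cells had under 50 cells in a library and were not run. BIRC3 in COL-positive cells rests on 0 to 43 UMIs per library, which limits its precision there. Other members also had few UMIs in COL-positive cells of some libraries, such as ICAM1 in PA control replicate 1.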
